A study of Homo sapiens with 15 samples.

Results

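The RNA levels of 9 genes that govern the start of blood coagulation and the activation of plasminogen were followed after knockdown of YAP and TAZ. The genes were F3, TFPI, TFPI2, THBD, SERPIND1, SERPINE2, PLAU, PLAUR and PLAT. They were chosen by symbol as members of these pathways, with earlier results of these data known. Counts among them are therefore set beside the share of all genes as a description only. All 9 were found among the 18858 genes of the count table.

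Coagulation outside the vessel begins when tissue factor, the membrane protein encoded by F3, binds factor VII, and it is restrained by the Kunitz-type inhibitor TFPI. Thrombin, the enzyme at the end of this cascade, is bound by thrombomodulin (THBD) and is inactivated by serpins such as heparin cofactor II (SERPIND1) and protease nexin-1 (SERPINE2). Urokinase (PLAU), held at the cell surface by its receptor (PLAUR), and tissue plasminogen activator (PLAT) turn plasminogen into plasmin, a protease that breaks down fibrin and other matrix proteins. Tissue factor, urokinase and the urokinase receptor are well known from invasive carcinoma cells, and YAP and TAZ are the transcriptional co-activators at the end of the Hippo pathway, which bind DNA mainly through TEAD factors.

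MDA-MB-231, a human breast adenocarcinoma line of mesenchymal character, was profiled by sequencing of polyadenylated RNA in 5 groups of 3 libraries. The groups were untransfected cells (Control), cells given a non-targeting siRNA pool (siControl), and cells given siRNA pools against YAP (siYAP), TAZ (siTAZ) or both (siYAP+TAZ). Transfected cells were kept for 48 h for the knockdown, and all groups were then plated on gelatin for 5 to 6 h before lysis. Each siRNA was used at the same concentration, so an effect of the larger total amount of siRNA in siYAP+TAZ and an effect of the co-knockdown cannot be told apart. The question was how suppression of YAP, TAZ or both alters the transcriptome of cells that degrade matrix. All cells came from a single line, wild type per the labels, and the libraries are named by the number they carry in the labels (16 to 30).

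F3 and SERPIND1 were the genes of the set with the largest changes, and the RefSeq sequence of the 250 bases before the start of each (GRCh38.p14) is shown on the strand of the gene so that they can be compared. F3 (ENSG00000117525) lies on the minus strand at chr1:94529173-94541759 with 6 exons in its canonical transcript, and its upstream window is chr1:94541760-94542009. SERPIND1 (ENSG00000099937) lies on the plus strand at chr22:20774113-20787720 with 5 exons, and its window is chr22:20773863-20774112. Capitals mark matches to the AP-1 motif TGANTCA.
F3: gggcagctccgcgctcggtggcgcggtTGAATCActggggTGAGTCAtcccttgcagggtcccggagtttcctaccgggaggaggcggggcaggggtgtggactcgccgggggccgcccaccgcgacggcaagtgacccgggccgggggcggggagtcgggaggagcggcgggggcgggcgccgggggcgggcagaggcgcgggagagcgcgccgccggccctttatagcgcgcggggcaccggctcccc
SERPIND1: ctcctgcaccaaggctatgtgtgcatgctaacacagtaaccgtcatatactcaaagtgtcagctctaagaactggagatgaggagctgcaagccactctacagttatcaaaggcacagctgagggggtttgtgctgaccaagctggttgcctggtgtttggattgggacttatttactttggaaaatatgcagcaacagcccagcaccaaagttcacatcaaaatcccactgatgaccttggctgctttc
The F3 window held a pair of AP-1 matches, TGAATCA at 223 to 217 bases and TGAGTCA at 210 to 204 bases before the start, whereas the SERPIND1 window held none. Windows of 7 of the 9 genes were searched (9 windows, since SERPINE2 and PLAU each have more than 1 listed start). PLAT and THBD were not searched. TFPI2 held 1 match (TGAATCA, 87 to 81 bases before the start) and PLAUR held 1 (TGAGTCA, 186 to 180 bases). The core TEAD motif, GGAATG on either strand, was in none of the windows searched. Among all 35116 RefSeq promoters of the same length, 6.57% held TGANTCA and 11.9% held GGAATG. A match is only a description of the letters, and no match says nothing of binding elsewhere.

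Total counts ran from 18696737 in library 29 (siTAZ) to 30107312 in library 18 (siYAP), and TMM factors from 0.943 to 1.025. YAP1 stood at 4202 to 4431 normalized counts (counts scaled to a common library size) in siControl and at 1013, 2764 and 761 in siYAP, so that library 23 retained more of the target than the other siYAP libraries. In siTAZ, WWTR1, the gene of TAZ, stood at 828, 254 and 521 against 1579 to 1995 in siControl. In siYAP+TAZ, YAP1 lay at 1796 to 2240 and WWTR1 at 1123 to 1284, both below every siControl library but above most libraries of the matching single knockdown. Of the targets only WWTR1 in siTAZ passed the thresholds (-1.74, adjusted p = 0.0187). YAP1 did not pass in siYAP (-1.51, adjusted p = 0.0992) or in siYAP+TAZ (-1.06, adjusted p = 0.0723), nor did WWTR1 in siYAP+TAZ (-0.62, adjusted p = 0.199). Of 5 markers of mesenchymal breast cancer lines, VIM, CD44, AXL and MSN had means of 20818 to 36761 normalized counts in siControl and SPARC of 22.4. AXL fell in siYAP+TAZ by 0.51 on the log2 scale (adjusted p = 0.000199), and the other 4 did not pass. Of 6 luminal or HER2 markers, ESR1 and CDH1 were not among the genes tested, and ERBB2, GATA3, EPCAM and PGR had means of 2453, 529, 342 and 1.26. The study describes its RNA sequencing samples as independent sets of experiments, and neither it nor the labels say which libraries form a set.

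Per kilobase of canonical transcript, F3 was by far the most abundant of the 9 RNAs. In siControl its level was 398 ± 67.3 CPM (counts scaled to library size) per kilobase (SD, n = 3). The urokinase receptor followed at 137 ± 17.1, urokinase at 126 ± 0.763 and PLAT at 93.9 ± 16.2. THBD stood at 23.1 ± 4.06, SERPINE2 at 15.4 ± 2.02, TFPI2 at 14.5 ± 1.16 and TFPI at 12.4 ± 1.09. SERPIND1 was nearly silent, at 0.201 ± 0.0515. PLAUR and PLAU overlapped in their libraries, as did SERPINE2 with TFPI2 and with TFPI, and these neighbours could not be ordered beyond their spread. The order depends on the length used. Over the length of all annotated exons, a choice made after seeing the data, PLAUR stood at 42.0 and PLAU at 99.9, and SERPINE2 at 3.82 came below TFPI at 4.09.

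**Figure D1:**
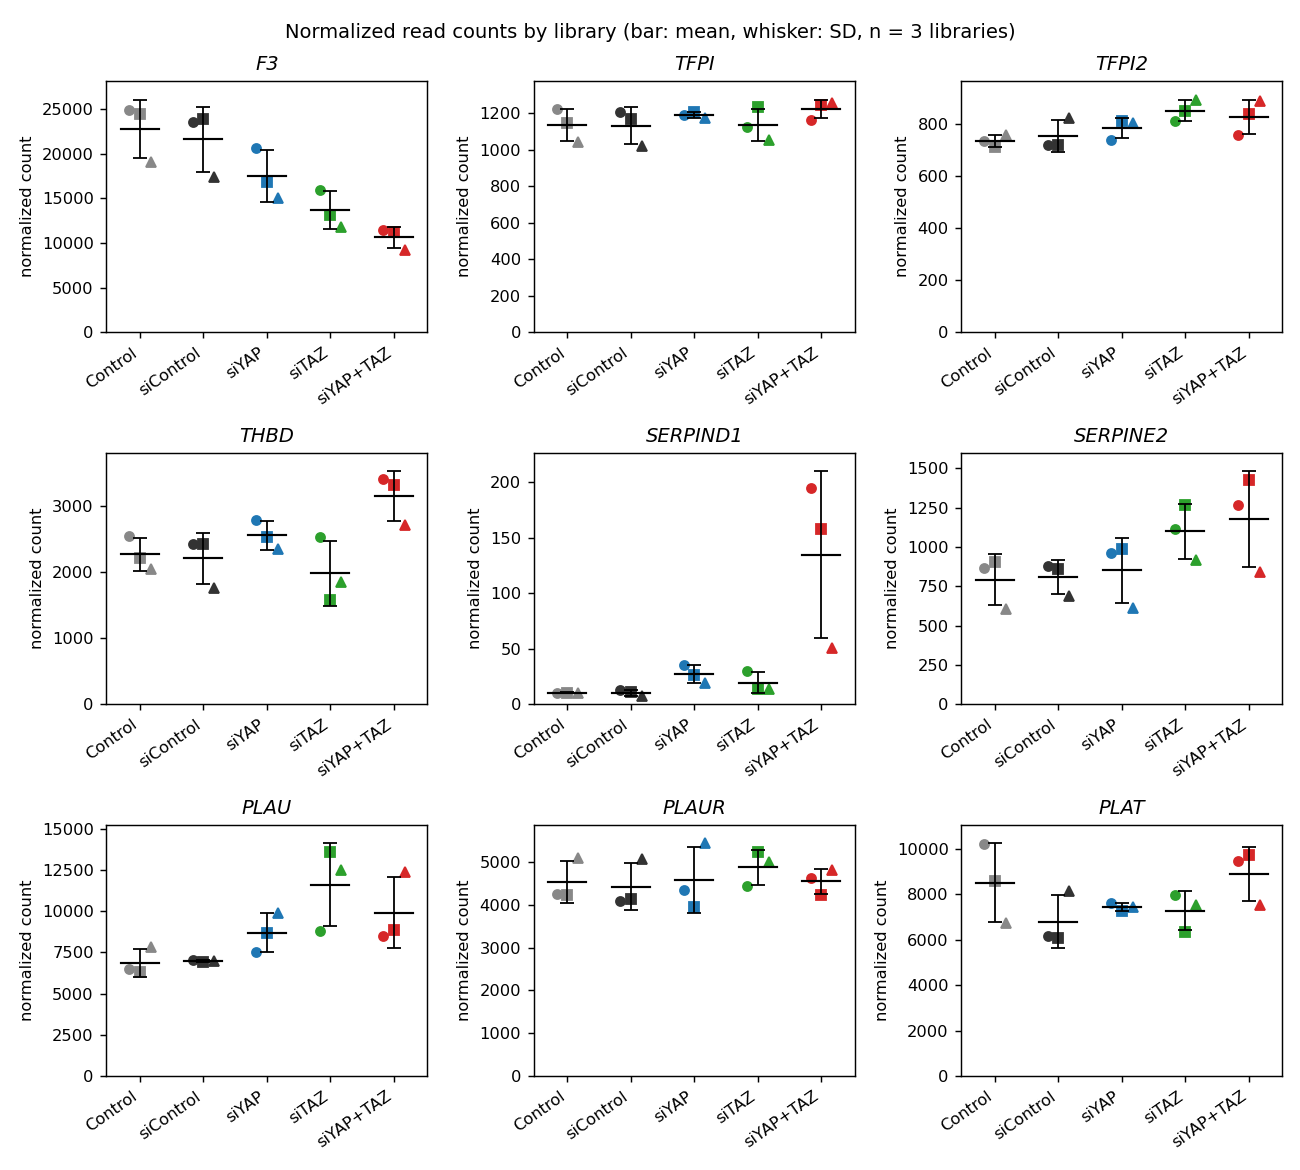
Normalized read counts of the 9 genes in each of the 15 libraries, 1 panel per gene with the 5 groups on the x axis. Circles, squares and triangles are the libraries numbered 16 to 20, 21 to 25 and 26 to 30, bars are group means and whiskers the SD. F3 was lower in every siYAP+TAZ library than in any library of another group, and SERPIND1 was higher.

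After co-knockdown of YAP and TAZ, the tissue factor RNA fell while that of its inhibitor TFPI passed no test, and heparin cofactor II RNA rose from near silence. Thrombomodulin RNA rose modestly, by a call that was lost in most fits that left out a library. Genes were called in edgeR's quasi-likelihood test across the whole table by a pair of thresholds, a Benjamini-Hochberg adjusted p no higher than 0.05 and a log2 fold change of 1 or more in either direction. Against siControl, 2 of the 9 genes passed both thresholds in siYAP+TAZ, SERPIND1 upward and F3 downward, where 3.46% of all genes passed. By the adjusted p alone 3 of the 9 passed, THBD being the third, where 18.4% of all genes did. DESeq2 called the same pair by both thresholds and 5 of the 9 by the adjusted p alone, adding SERPINE2 and PLAU, where it called 3.27% and 19.4% of all genes. The median log2 fold change of the 9 genes was 0.39, against -0.0048 over all genes.

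**Figure D2:**
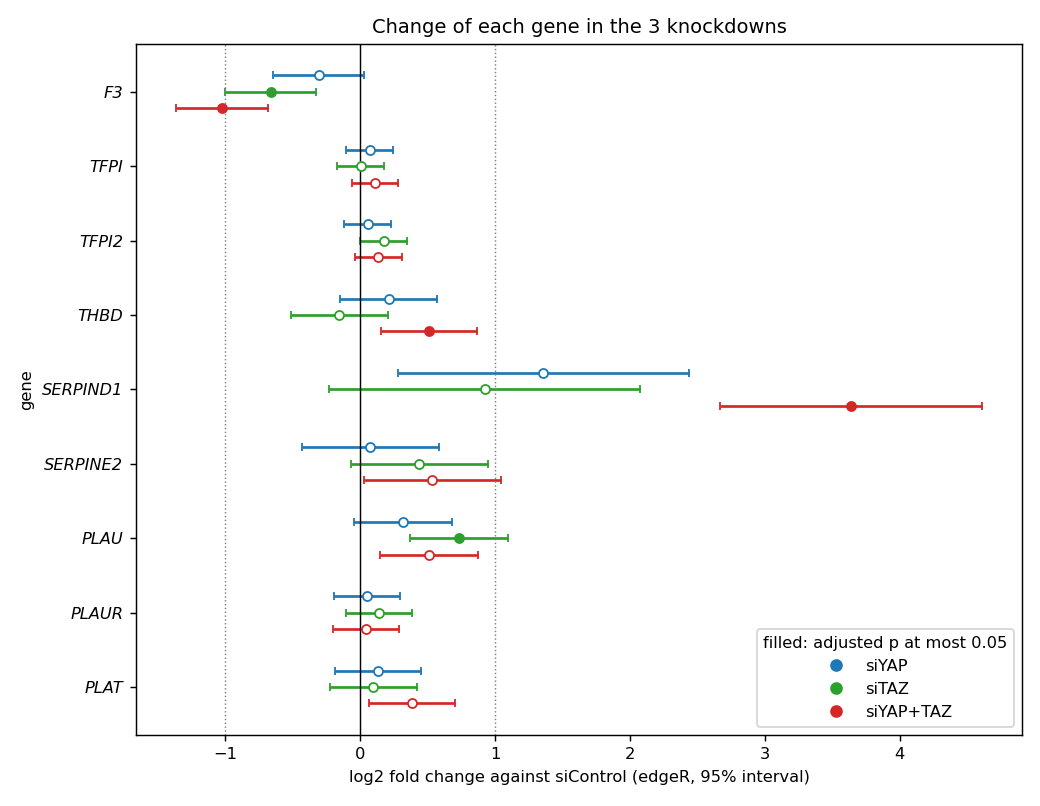
Log2 fold change of each gene against siControl in siYAP, siTAZ and siYAP+TAZ (x axis), with 95% intervals from edgeR, for the 9 genes. Filled points have an adjusted p of at most 0.05 and dotted lines mark a log2 fold change of 1 in either direction. The siYAP+TAZ intervals of F3 (-1.36 to -0.68) and SERPIND1 (2.66 to 4.61) lie away from 0, and those of TFPI, TFPI2 and PLAUR include it.

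F3, which encodes tissue factor, had 23515, 23918 and 17394 normalized counts in the siControl libraries and 11438, 11225 and 9253 in siYAP+TAZ. The groups did not overlap, and even the lowest siControl library stood above every co-knockdown library. F3 fell by 1.02 on the log2 scale (SE 0.16, adjusted p = 0.000474), with a 95% interval of -1.36 to -0.68. The mean went from 21609 ± 3656 (SD, n = 3) to 10639 ± 1205 normalized counts. The fold lies close to the threshold of 1: without library 17 it was -0.95, without library 22 it was -0.94 and without library 30 it was -0.92. In those fits the adjusted p was at most 0.00316, so the fall in F3 was lost by the fold threshold and not by the test.

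The single knockdowns gave intermediate levels of F3. In siYAP the libraries stood at 20624, 16868 and 14995 normalized counts, overlapping with siControl. The log2 fold change was -0.30 (SE 0.16, adjusted p = 0.482), while the log2 ratios within runs of library numbers were -0.19, -0.50 and -0.21. With the runs as a replicate block the adjusted p in siYAP was 0.00423. In siTAZ the libraries stood at 15974, 13164 and 11825, all below siControl, with a log2 fold change of -0.66 (SE 0.16, adjusted p = 0.0469). The siTAZ call rested on single libraries, and the adjusted p was 0.163 without library 17, 0.182 without library 22, 0.232 without library 24 and 0.146 without library 29. It was 0.0839 with scaling to library size only and 0.0709 with only the groups compared. The group means of F3 fell in the order siControl, siYAP, siTAZ and siYAP+TAZ, but siYAP and siTAZ overlapped. Libraries 26 to 30 held the lowest F3 of their group in each of the 5 groups. The labels do not say that consecutive library numbers form a set, yet within the runs 16 to 20, 21 to 25 and 26 to 30 the siYAP+TAZ library stood below the siControl library by log2 ratios of -1.04, -1.09 and -0.91.

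TFPI, the inhibitor that forms a complex with factor Xa and the tissue factor and factor VIIa pair, had 1208, 1172 and 1021 normalized counts in siControl and 1166, 1248 and 1260 in siYAP+TAZ. The groups overlapped. Its log2 fold change was 0.11 (SE 0.08, adjusted p = 0.403), with a 95% interval of -0.06 to 0.28. In siYAP and siTAZ the log2 fold changes of TFPI were 0.07 and 0.00. The ratio of the F3 level to the TFPI level per kilobase was 31.9 ± 2.92 in siControl (SD, n = 3) and 33.5 ± 2.71 in Control. In siYAP+TAZ it was 14.6 ± 2.11, in siTAZ 20.2 ± 3.20 and in siYAP 24.7 ± 3.97. These ratios are given as a description without a test, and they concern RNA, not protein or activity. Their absolute size depends on the transcript lengths used, which scale every group by the same factor.

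**Figure D3:**
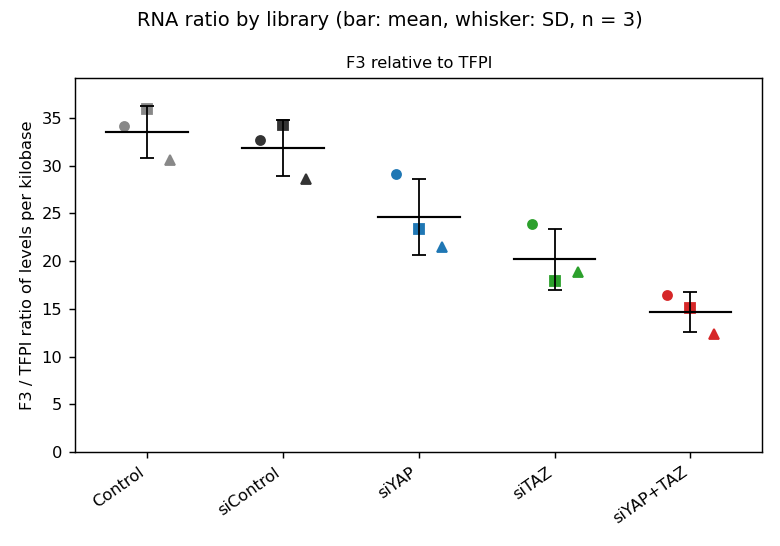
Ratio of the F3 level to the TFPI level per kilobase (y axis) in each library of the 5 groups, with group means (bars) and SD (whiskers, n = 3 libraries). The siYAP+TAZ libraries lie at 12.3 to 16.5, below the 28.6 to 34.3 of siControl.

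TFPI2, a Kunitz-type inhibitor of plasmin and other matrix-degrading proteases despite its name, showed 719, 720 and 824 normalized counts in siControl and 756, 837 and 887 in siYAP+TAZ. The groups overlapped, and the log2 fold change was 0.13 (SE 0.08, adjusted p = 0.298). In siTAZ it was 0.17 (SE 0.08, adjusted p = 0.308) and in siYAP 0.06 (adjusted p = 0.869).

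SERPIND1, whose product heparin cofactor II inactivates thrombin, is known mainly as a liver gene. The siControl libraries held 15, 12 and 7 raw reads of it and the Control libraries 10, 9 and 8, whereas siYAP+TAZ held 164, 147 and 55. Every co-knockdown library stood above every library of the other groups, and the normalized means went from 10.5 ± 2.68 to 134 ± 75.1 (SD, n = 3). Library 30 was well below the other co-knockdown libraries, at 50.5 normalized counts against 195 and 158. The log2 fold change was 3.64 (SE 0.46, adjusted p = 4.84e-05), with a 95% interval of 2.66 to 4.61, and it stayed between 3.27 and 4.05 in the 6 fits that left out 1 library of either group. As its siControl level was the lowest of the 9, the rise starts from a very low level.

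The single knockdowns also lay above siControl for SERPIND1, though short of the adjusted p in the fit without a term for the runs of library numbers. Raw counts were 46, 33 and 19 in siYAP and 35, 12 and 11 in siTAZ. After normalization neither group overlapped with siControl, at 19.5 to 35.2 and 14.1 to 30.1 against 7.51 to 12.8. It changed by 1.36 on the log2 scale in siYAP (SE 0.51, adjusted p = 0.264) and 0.92 in siTAZ (SE 0.54, adjusted p = 0.437). Within the runs of library numbers, the log2 ratios to siControl were 1.47, 1.24 and 1.38 in siYAP, 1.24, 0.34 and 0.91 in siTAZ, and 3.93, 3.83 and 2.75 in siYAP+TAZ. SERPIND1 lies wholly within PI4KA on the opposite strand without sharing exonic bases, and PI4KA, a lipid kinase gene, had a log2 fold change of 0.13 in siYAP+TAZ (adjusted p = 0.247). Whether the counting used strand is not given in the sources used here.

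THBD, a single-exon gene that encodes thrombomodulin, the receptor through which thrombin activates protein C, had 2433, 2434 and 1762 normalized counts in siControl. In siYAP+TAZ the libraries stood at 3415, 3318 and 2715, all above siControl. THBD rose by 0.51 on the log2 scale (SE 0.17, adjusted p = 0.0474), below the fold threshold. The adjusted p was 0.057 without library 17, 0.0607 without library 22, 0.156 without library 27, 0.144 without library 20 and 0.125 without library 25. It was 0.056 with scaling to library size only, and 0.065 when Control took the place of siControl. In siYAP the log2 fold change was 0.21 (adjusted p = 0.695), and in siTAZ it was -0.15 (adjusted p = 0.729), with libraries at 2531, 1580 and 1847 normalized counts that spanned the siControl range.

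SERPINE2, whose product protease nexin-1 inhibits thrombin, urokinase and tissue plasminogen activator, had 880, 862 and 688 normalized counts in siControl and 1264, 1428 and 841 in siYAP+TAZ. Library 30 fell within the siControl range and the other co-knockdown libraries stood above it. This amounted to a log2 fold change of 0.54 (SE 0.23, adjusted p = 0.141). In siTAZ it was 0.44 (SE 0.23, adjusted p = 0.391), with 1117, 1266 and 916 normalized counts, and in siYAP 0.08 (adjusted p = 0.956). Within the runs of library numbers, the log2 ratios to siControl were 0.52, 0.73 and 0.29 in siYAP+TAZ and 0.34, 0.55 and 0.41 in siTAZ. In siYAP they were 0.12, 0.19 and -0.16. With the runs as a replicate block the adjusted p was 4.9e-06 in siYAP+TAZ and 0.000347 in siTAZ.

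**Figure D4:**
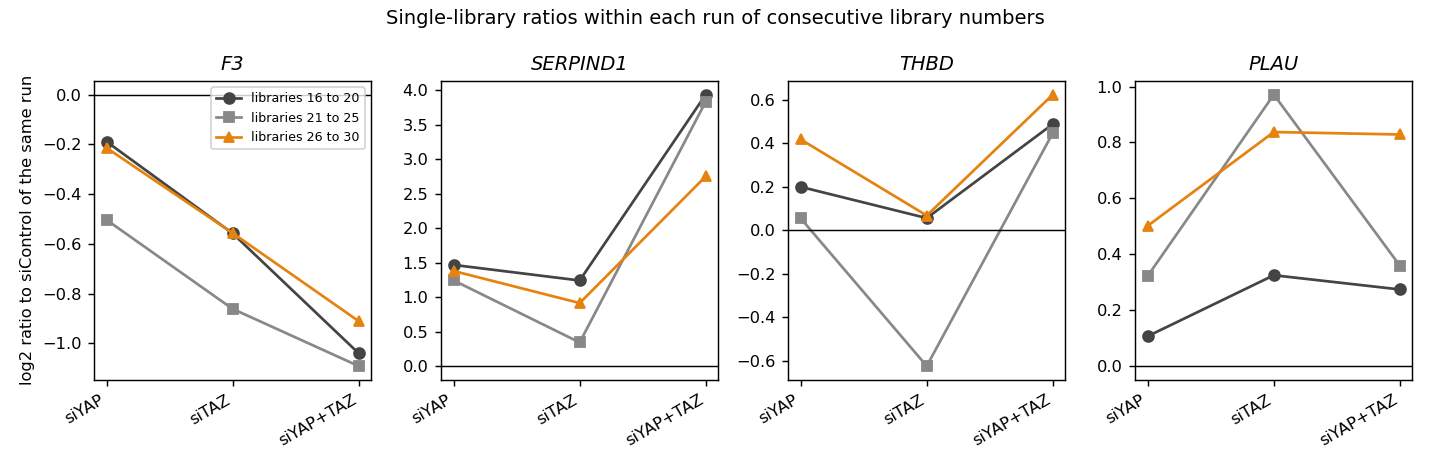
Log2 ratio of each knockdown library to the siControl library of the same run of consecutive library numbers, for F3, SERPIND1, THBD and PLAU, with 1 line per run and a y axis of its own in each panel. Each point rests on 1 library per group. All ratios of F3 are below 0 and all of SERPIND1 and PLAU above 0, and in THBD the siTAZ ratio of libraries 21 to 25 is -0.62 while the other ratios are above 0.

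Of the plasminogen activators, urokinase RNA passed the adjusted p in the TAZ knockdown and lay at its edge in the co-knockdown. PLAU (ENSG00000122861) had 7008, 6924 and 6976 normalized counts in siControl, with an SD of 42.3, and 8777, 13573 and 12464 in siTAZ. Every siTAZ library stood above siControl. The log2 fold change was 0.74 (SE 0.17, adjusted p = 0.0417), and it passed the adjusted p but not the fold threshold. The adjusted p was 0.127 without library 17, 0.151 without library 22, 0.221 without library 24, 0.0974 without library 27 and 0.121 without library 29, and 0.0537 with only the groups compared. In siYAP+TAZ the libraries stood at 8473, 8881 and 12388, again above every siControl library, with a log2 fold change of 0.51 (SE 0.17, adjusted p = 0.0506). There PLAU passed under 7 alternatives that kept all libraries of the groups used (adjusted p = 0.0111 in DESeq2 and up to 0.0462 with its size factors), and leaving out single libraries gave 0.037 to 0.179. In siYAP it was 0.32 (SE 0.17, adjusted p = 0.494), with 7547, 8661 and 9879 normalized counts and no overlap with siControl. Of the exonic bases of PLAU, 31.0% lie opposite the long noncoding RNA C10orf55, whose log2 fold change in siYAP+TAZ was 0.38 (adjusted p = 0.393), at 37.6 to 59.6 normalized counts.

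PLAUR, the urokinase receptor, had 4081, 4131 and 5066 normalized counts in siControl and 4622, 4234 and 4813 in siYAP+TAZ, which lay wholly inside the siControl range. The log2 fold change was 0.04 (SE 0.12, adjusted p = 0.848), with a 95% interval of -0.20 to 0.29. In siYAP it was 0.05 (adjusted p = 0.935) and in siTAZ 0.14 (adjusted p = 0.606).

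PLAT, tissue plasminogen activator, had 6160, 6081 and 8149 normalized counts in siControl and 9441, 9711 and 7523 in siYAP+TAZ. The groups overlapped, and the log2 fold change was 0.39 (SE 0.15, adjusted p = 0.0894), with 0.023 without library 27 and 0.0479 without library 30. Untransfected cells already stood at 10209, 8569 and 6729, and against Control the log2 fold change was 0.06 (adjusted p = 0.819). In siYAP and siTAZ the log2 fold changes against siControl were 0.13 and 0.10.

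Alone, YAP knockdown and TAZ knockdown moved none of the 9 genes past both thresholds in the fit without a term for the runs of library numbers. With that term SERPIND1 passed both thresholds in siYAP and F3 passed the adjusted p alone there. In siTAZ that term added SERPINE2 by the adjusted p alone. Without it, in siYAP 0 of 9 passed either rule in edgeR, where 0.0955% of all genes passed both thresholds and 0.933% the adjusted p alone, and 0 of 9 in DESeq2, where 0.18% and 2.12% did. At an unadjusted p under 0.05 in edgeR stood 1 of 9, against 11.9% of all genes. In siTAZ 0 of 9 passed both thresholds in edgeR, where 0.212% of all genes passed, and 0 of 9 in DESeq2, where 0.329% did. At an unadjusted p under 0.05 in edgeR stood 3 of 9, against 16% of all genes. By the adjusted p alone F3 and PLAU passed in siTAZ, 2 of 9 in either tool, where 2.03% of all genes did in edgeR and 4.25% in DESeq2. The knockdowns share the siControl libraries, so their fold changes are not independent of each other.

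Set directly against the single knockdowns, the co-knockdown differed in SERPIND1. Against siYAP the log2 fold change of SERPIND1 was 2.28 (SE 0.40, adjusted p = 0.00297), and it was the only 1 of 9 past both thresholds, where 0.742% of all genes passed. By the adjusted p alone F3 passed as well, at -0.72 (SE 0.16, adjusted p = 0.0175), so 2 of 9 passed where 5.13% of all genes did. The F3 call was lost without library 18 or library 30, when the adjusted p reached at most 0.0788. Against siTAZ SERPIND1 stood at 2.71 (SE 0.43, adjusted p = 0.00167), again 1 of 9 where 0.78% of all genes passed both thresholds. THBD passed the adjusted p alone there, at 0.66 (SE 0.17, adjusted p = 0.0355), which makes 2 of 9 where 5.44% of all genes did. That THBD call was lost without library 20, 24, 25 or 29, with adjusted p values of 0.111 to 0.126. When only the libraries of the groups compared entered the fit, THBD no longer passed against siTAZ (adjusted p = 0.0992), and SERPIND1 no longer passed against siYAP (2.27, adjusted p = 0.0763) or siTAZ (2.71, adjusted p = 0.0659). F3 in siYAP+TAZ against siTAZ was -0.36 (SE 0.16, adjusted p = 0.226), although all its co-knockdown libraries lay below all siTAZ libraries. With the runs of library numbers as a replicate block its adjusted p there was 0.000336, and SERPINE2 passed the adjusted p against siYAP (8.07e-05).

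The interaction asks whether the co-knockdown departs from the sum of both single effects on the log2 scale. For 0 of 9 genes did it pass in edgeR or DESeq2, where 0.0053% of all genes passed both thresholds and 0.0106% the adjusted p alone in edgeR, and 0.0318% and 0.111% in DESeq2. At an unadjusted p under 0.05 in edgeR stood 1 of 9, against 5.85% of all genes. For F3 it was -0.06 (SE 0.22, 95% interval -0.53 to 0.42). SERPIND1 had the largest, at 1.36 (SE 0.68, adjusted p = 0.862, 95% interval -0.09 to 2.81). For PLAU it was -0.55 (SE 0.24, adjusted p = 0.818) and for THBD 0.45 (SE 0.24, adjusted p = 0.879).

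Transfection itself was checked by setting siControl against Control. In edgeR and in DESeq2 0 of 9 genes passed, as did 0% of all genes by either rule in both tools, with 398 genes, 2.11%, at an unadjusted p under 0.05 in edgeR. PLAT was the only 1 of the 9 with an unadjusted p under 0.05, at a log2 fold change of -0.32 (SE 0.15) that did not pass after adjustment. With Control in place of siControl, F3 (-1.10, adjusted p = 0.000245) and SERPIND1 (3.68, adjusted p = 5.46e-05) passed both thresholds in siYAP+TAZ, 2 of 9 where 3.79% of all genes passed. By the adjusted p alone PLAU (0.53, adjusted p = 0.041) joined them, where 19.4% of all genes passed.

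The wider pathway was described with 45 further genes of coagulation and fibrinolysis, of which 29 were in the table. Plasminogen itself (PLG), the fibrinogen chains and factor VII were not among the genes tested. In siYAP+TAZ 3 of the 29 passed both thresholds upward, where 3.14% of all genes did, and by the adjusted p alone 8 rose, where 9.97% of all genes did, and 21 did not pass. The count of 3 rested on single libraries: it was 0 without library 17, 1 without library 27, 2 without library 20, 22 or 25, and 1 with Control in place of siControl. The median log2 fold change of the 29 was 0.46, against -0.0048 over all genes. In siYAP and in siTAZ 0 of the 29 passed either rule in edgeR, with 6 and 7 at an unadjusted p under 0.05 against the 11.9% and 16% of all genes, while DESeq2 called PROCR in siYAP and F8 in siTAZ by the adjusted p alone, 3.45% of the 29 in each, where it called 2.12% and 4.25% of all genes.

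Of the genes that rose past both thresholds, LRP1 is the clearance receptor that takes up urokinase in complex with its inhibitors. It stood at 2190, 1966 and 1929 normalized counts in siControl libraries and reached 4344, 4750 and 3144 after co-knockdown, with a log2 fold change of 1.01 (SE 0.30, adjusted p = 0.0389). LRP1 missed the thresholds in 5 of 6 fits that left out a library (adjusted p up to 0.117) and against Control (0.78, adjusted p = 0.0981). SERPINA5, the protein C inhibitor, had raw counts of 2, 2 and 4 in siControl and 13, 12 and 12 in siYAP+TAZ (2.31, SE 0.60, adjusted p = 0.00987; adjusted p = 0.0514 without library 17). SERPINF2, alpha2-antiplasmin, had 6, 10 and 2 against 12, 20 and 19 (1.64, SE 0.48, adjusted p = 0.0199). It was lost without library 17, 25 or 27 (adjusted p up to 0.0811), and against Control its log2 fold change was 0.87 (adjusted p = 0.197). At such counts the size of these folds is poorly determined.

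Smaller rises by the adjusted p alone were seen in PROS1 (0.72, adjusted p = 0.000122), the protein C cofactor protein S, in SERPINB6 (0.39, adjusted p = 0.00053) and in GGCX (0.46, adjusted p = 0.00805), the carboxylase of vitamin K-dependent clotting factors. F8, factor VIII, stood at 0.48 (adjusted p = 0.0269) and S100A10, a plasminogen receptor subunit at the cell surface, at 0.24 (adjusted p = 0.0428). The F8 call was lost without library 17, 22 or 25 (adjusted p up to 0.137), with only the groups compared (0.0609) and against Control (0.103). The S100A10 call was lost in all 6 fits that left out a library, at adjusted p values of 0.0553 to 0.116. Of the 4 genes of protease-activated receptors 0 passed in edgeR, with 1 at an unadjusted p under 0.05 against 30.3% of all genes. DESeq2 called that 1 gene, F2RL1, by the adjusted p alone, where it called 19.4% of all genes. F2R, which encodes PAR1, had a log2 fold change of -0.09 (adjusted p = 0.588), and F2RL1, which encodes the PAR2 that the tissue factor complex cleaves, of 0.55 (adjusted p = 0.154).

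The genes whose pattern lay closest to each member over the 15 libraries were sought among genes averaging 100 normalized counts or more, as a description with Pearson's r on the log2 scale of depth-scaled counts. Libraries share groups and runs, so such correlations come easily. Nearest to F3 were RGMB, WDR36 and P3H2 (each r = 0.97), which had log2 fold changes of -0.69, -0.33 and -0.81 in siYAP+TAZ. Nearest to SERPIND1 were CAMK1D (r = 0.98), LRP10 (r = 0.97) and NOX5 (r = 0.96), with 0.74, 0.61 and 2.65. PLAU was followed by HIP1 (r = 0.98), AFAP1L2 (r = 0.96) and SLCO3A1 (r = 0.96), and SLCO3A1 was also among the 3 nearest to TFPI2 (r = 0.92). THBD was followed by PAM (r = 0.97) and PMP22 (r = 0.95). SERPINE2 lay closest to SLC6A9 (r = 0.93), MYO1E (r = 0.93) and EPHB2 (r = 0.92), and PLAUR to URM1 (r = 0.93), EHD1 (r = 0.93) and SYNGR2 (r = 0.92). TFPI and PLAT had no neighbour as close, with ZNF888 (r = 0.86), DMXL2 (r = 0.85) and TENT5A (r = 0.84) for TFPI, and MAN2B1 (r = 0.83), BCAM (r = 0.83) and PLEC (r = 0.82) for PLAT.

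Markers of other cells that make these proteins and of a response to transfected RNA moved in part with the knockdowns. Of 5 hepatocyte markers 2 were in the table and ALB, APOB and TTR were not. The summed level of those present, nearly all of it SERPINA1, was 904 to 1815 normalized counts in siYAP+TAZ, 646 to 1261 in siTAZ and 472 to 1013 in siYAP against 424 to 623 in siControl. SERPINA1 had a log2 fold change of 1.35 in siYAP+TAZ (adjusted p = 0.0364) and 1.03 in siTAZ (adjusted p = 0.227). APOA1, the other one, averaged 5.79 in siControl and 7.32 in siYAP+TAZ (0.36, adjusted p = 0.734). Of 5 endothelial markers 2 were present, without CDH5, TEK and EMCN, and their sum, nearly all of it ROBO4 (log2 fold change 0.49, adjusted p = 0.00863), was 1037 to 1223 in siYAP+TAZ, 1013 to 1067 in siTAZ and 975 to 1176 in siYAP against 693 to 1007 in siControl, while CLDN5 averaged 6.13 in siControl (log2 fold change -0.11). Of 5 blood cell markers 2 were present, PTPRC at a mean of 3.34 in siControl and ITGB2 at a log2 fold change of -0.96 (adjusted p = 0.174), and their sum was 83.5 to 221 in siYAP+TAZ, 145 to 338 in siTAZ and 121 to 234 in siYAP against 244 to 373 in siControl. Of 8 interferon-stimulated genes 2 passed the adjusted p upward, MX1 (1.03, adjusted p = 0.00774) and ISG15 (0.48, adjusted p = 0.00621), where 9.97% of all genes did. The 8-gene sum was 3679 to 3898 in siYAP+TAZ, 3517 to 3693 in siYAP, 2242 to 3262 in siTAZ and 2645 to 2994 in siControl. Their part in the changes of SERPIND1, THBD and F3 was not tested.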

How the data were processed

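Polyadenylated RNA from MDA-MB-231 cells was sequenced as 15 libraries, grouped by the treatment in the labels. The authors aligned reads with STAR 2.4.2a to GRCh38 and deposited raw read counts per gene. The 100 other columns, which hold the authors' normalized values and their DESeq2 fold changes and p-values for pairs of groups, were not used.

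TMM scaling preceded the edgeR 4.0.16 test, run under R 4.3.3 (robust quasi-likelihood, one coefficient per group, all 15 libraries), with Benjamini-Hochberg adjustment over all 18858 genes. DESeq2 1.42.0 was an alternative. The other alternatives were other scalings, a filter of at least 10 reads in at least 3 libraries, only the groups compared, a block on library numbers, each library of the groups compared left out, Control as reference, and the adjusted p alone. Log2 values for correlations used a prior count of 2. Normalized counts are counts scaled to the mean effective library size. Total counts of 18696737 to 30107312 make errors large for genes with few counts. Coordinates, lengths and overlaps came from GENCODE release 44 (GRCh38) and promoters from RefSeq. The edgeR and DESeq2 fits were first tried on simulated data for siYAP+TAZ and siYAP against siControl and for the interaction. The simulated data held no run effect, and the other comparisons and alternatives were not tried on them.

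The 9 genes and all lists were chosen with earlier results of these data known. Named were the 9 genes, the siRNA targets, listed genes that passed in a knockdown, F2R, F2RL1 and PLG, and the 3 nearest genes of each member. Some genes that this rule names are not reported here. Genes given beyond this rule (PI4KA, C10orf55, PROCR, PROS1, SERPINB6, GGCX, F8, S100A10, markers) were added after their values were seen.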

Additional observations from a re-analysis of the deposited data

How the results depend on the processing

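In siYAP+TAZ against siControl the count of 2 genes past both thresholds fell to 1 with scaling to library size only, where F3 stood at -0.98, and it ranged from 1 to 2 when single libraries were left out (F3 lost without library 17, 22 or 30). It stayed 2 under the other alternatives apart from the adjusted p alone, which gave 3 (5 in DESeq2). In siYAP the count of 0 became 1 with the run of library numbers as a replicate block (SERPIND1 1.37, adjusted p = 0.0119). By the adjusted p alone the block also added F3 in siYAP (-0.30, adjusted p = 0.00423) and against siTAZ (-0.36, adjusted p = 0.000336), SERPINE2 in siYAP+TAZ (adjusted p = 4.9e-06), in siTAZ (0.000347) and against siYAP (8.07e-05), and PLAU in siYAP+TAZ (0.0188). The numbers are not shared between groups in the labels, and same-run libraries of different groups correlated in their deviations by -0.07 to 0.72 (median 0.47, n = 30 pairs) and libraries of different runs by a median of -0.40, with 11 of 15 libraries closest to their own run. Deviations from a group mean sum to 0, so positive values within runs come with negative values between runs. Each run holds 1 library of every group. As neither the labels nor the study name the sets and not every correlation exceeded 0.1, no pairing was assumed. If the runs are the sets, the fit without the block counts differences between runs as spread within groups. By the adjusted p alone the count went from 0 to 2 in siTAZ and from 1 to 2 against each single knockdown. With only the groups compared, SERPIND1 against siYAP (2.27, adjusted p = 0.0763) and against siTAZ (2.71, adjusted p = 0.0659) was lost and the count was 0. The cause was not tested in either case, though fewer libraries then estimate the spread. Small values turned sign: PLAT in siYAP (-0.19) and siTAZ (-0.22) and TFPI in siTAZ (-0.0014) with Control as reference, and PLAUR in siYAP+TAZ against siYAP under the block (0.0004). With a library left out, signs also turned in PLAUR (siYAP+TAZ -0.0078 to 0.15, siYAP -0.0907 to 0.16, against siYAP -0.11 to 0.13), SERPINE2 (siYAP -0.0271 to 0.26, against siTAZ -0.0609 to 0.30), TFPI (siTAZ -0.0654 to 0.0538), PLAU (against siYAP -0.0088 to 0.29) and TFPI2 (against siTAZ -0.0852 to 0.0195). None of these was called. With 3 libraries a group and 7 to 15 reads of SERPIND1 in siControl, depth limits the size of its fold more than its direction. Over all genes, those past both thresholds numbered 18 in siYAP, 40 in siTAZ and 1 in the interaction, against 34, 62 and 6 in DESeq2 and 72, 152 and 27 with the replicate block. The block gave 261 against siYAP and 276 against siTAZ for siYAP+TAZ, where the fit without it gave 140 and 147, and siTAZ gave 12 with only the groups compared and 77 against Control.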
